A study of Mus musculus with 12 samples.

Results

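The 8 genes described here encode enzymes and a secreted protein of the fasting response: Pck1 and Fbp1 of gluconeogenesis, the pyruvate dehydrogenase kinase gene Pdk4, Cpt1a, Acadm, Acadl and Hadha of mitochondrial fatty acid oxidation, and the lipase inhibitor gene Angptl4. They were chosen by name, with earlier results of these data known. The 8 rows are among 35869 gene symbols measured in polyadenylated RNA. No gene of ketone body synthesis is among the 8. The RNA came from colonoids, which are epithelial structures grown in Matrigel from colonic crypts of C57BL/6 mice in medium with EGF and L-WRN conditioned medium. All groups shared this strain and medium. Colonoids were left unstimulated or were stimulated for 12 h with recombinant mouse cytokines, namely IL-1b (100 ng/mL), IL-22 (1 ng/mL) or both together, with 3 libraries per group. Whether libraries of a group stem from different mice or cultures is not in the labels. The p-values below therefore reflect only how far these samples spread, and part of that spread may be technical.

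In a fasting liver or kidney, PEPCK (Pck1) and fructose-1,6-bisphosphatase (Fbp1) carry carbon back toward glucose, while CPT1A (Cpt1a) admits long-chain fatty acyl groups into mitochondria. There the acyl-CoA dehydrogenases (Acadm for medium chains, Acadl for long chains) and the trifunctional protein (Hadha) shorten them to acetyl-CoA. PDK4 holds pyruvate out of the same acetyl-CoA pool, and ANGPTL4 restrains lipoprotein lipase outside the cell. Several of these genes are textbook targets of the nuclear receptor PPAR-alpha and its coactivator PGC-1alpha. Colonocytes are known for oxidising fatty acids, butyrate in particular, as their main fuel. IL-22 acts on epithelium through STAT3, and IL-1b through NF-kB.

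Library totals lay between 4703902 and 5804033 counts, and 13987 genes passed the expression filter. All 16 colon epithelium markers were detected. They summed to 4499 to 4820 CPM in unstimulated libraries, 4756 to 5331 with IL-22, 4279 to 4657 with IL-1b and 4934 to 5136 with both. CPM is the count per 1000000 of the scaled library total. Of these 16 markers, 1 was called higher and 0 lower with IL-22 (median log2 fold change 0.13), and 2 and 0 with both (0.10). For IL-22 against IL-1b, 6 were called higher and 0 lower. The 16 leukocyte markers summed to 7.21 to 8.73 CPM in unstimulated libraries, 13.6 to 26.4 with IL-22, 21.1 to 82.1 with IL-1b and 15.9 to 24.0 with both. Cd68 (433 counts over all libraries) rose with IL-22 (log2 fold change 1.76 ± 0.265, SE; edgeR quasi-likelihood test, adjusted p = 0.000362) and with both (1.59 ± 0.27, adjusted p = 0.000637). The highest sum was that of IL-1b replicate 1, where Ptprc had 104 and Laptm5 130 counts. Cd4, Cd3g and Cd3e had 51, 26 and 19 counts in that library, and Cd8b1 had 1. Vim, of the fibroblast and endothelial markers, also had its highest count there (170). Adgre1 and Tyrobp were among the leukocyte markers at 0 throughout. Without IL-1b replicate 1, as with it, IL-1b against unstimulated called 0 of the 6 tested members. Over all 13987 genes that comparison called 9 without the library and 10 with it, so the count of 0 cannot show what the library adds. The 11 fibroblast and endothelial markers summed to 43.4 to 62.0, 32.2 to 36.2, 57.9 to 76.5 and 21 to 29.3 CPM in the same order, so the sum was lower with IL-22. Of the 3 tested markers of this list, Pdgfrb (1825 counts over all libraries) and Pecam1 fell with IL-22 (-0.89 ± 0.17 and -2.29 ± 0.44), and Vim stood at 0.30 ± 0.38 (adjusted p = 0.621). In contrast, Col1a1, Col3a1 and Dcn had 9, 1 and 1 counts and no marker of the list was at 0 over all libraries. Of the 7 adipocyte markers, Lep and Retn had no count, Plin1 had 1 and Adipoq 3 over all libraries, Fabp4 had 46 and Cidec 1495, so this list summed to 25.8 to 31.5, 16.8 to 23.0, 26.1 to 27.3 and 19.6 to 25.3 CPM in the same order. Cidec, which codes for a lipid droplet protein, fell with IL-22 (-0.44 ± 0.14, adjusted p = 0.0395) and stood at -0.29 ± 0.14 with both (adjusted p = 0.147). The 10 markers of small intestinal epithelium summed to 340 to 466, 276 to 380, 365 to 428 and 226 to 414 CPM. The part of other cell types in the results was not tested.

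Counts per exon base had a median of 0.0596 over 13288 tested genes and reached 0.576 at the 99th percentile, and Acadl stood at 0.405 in unstimulated libraries. Abundant genes may therefore be compressed in this table, in level and in fold change, which bears on comparisons between abundant and scarce genes. With the trend of fold change on count per exon base removed, the change with IL-22 was -2.90 for Pck1, -1.15 for Angptl4, -0.55 for Cpt1a, -0.31 for Acadm and 0.33 for Acadl on the log2 scale, all of them still called.

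Calls among the 6 tested genes were made with IL-22 and not with IL-1b. With IL-22, Pck1, Angptl4, Cpt1a and Acadm fell, Acadl rose, and Hadha did not pass the test, while Fbp1 and Pdk4 were too scarce to be tested. Of the 6 genes tested, 4 were called lower and 1 higher with IL-22 alone (edgeR quasi-likelihood test, with p adjusted by Benjamini-Hochberg across all genes and a threshold of 0.05). Among all genes tested, 10.6% of genes were called lower and 11.9% higher in that comparison. IL-1b alone called none of the 6 by edgeR or by DESeq2. Only 0.0715% of all genes were called by edgeR there, so a count of 0 among 6 says little of these genes. An unadjusted edgeR p under 0.05 was reached by 0 of the 6 (lowest 0.233, Angptl4) and by 1338 of the 13987 genes tested. Since RNA was taken from whole cultures, fewer cells of a type and less RNA per cell cannot be told apart in any of these values.

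**Figure D1:**
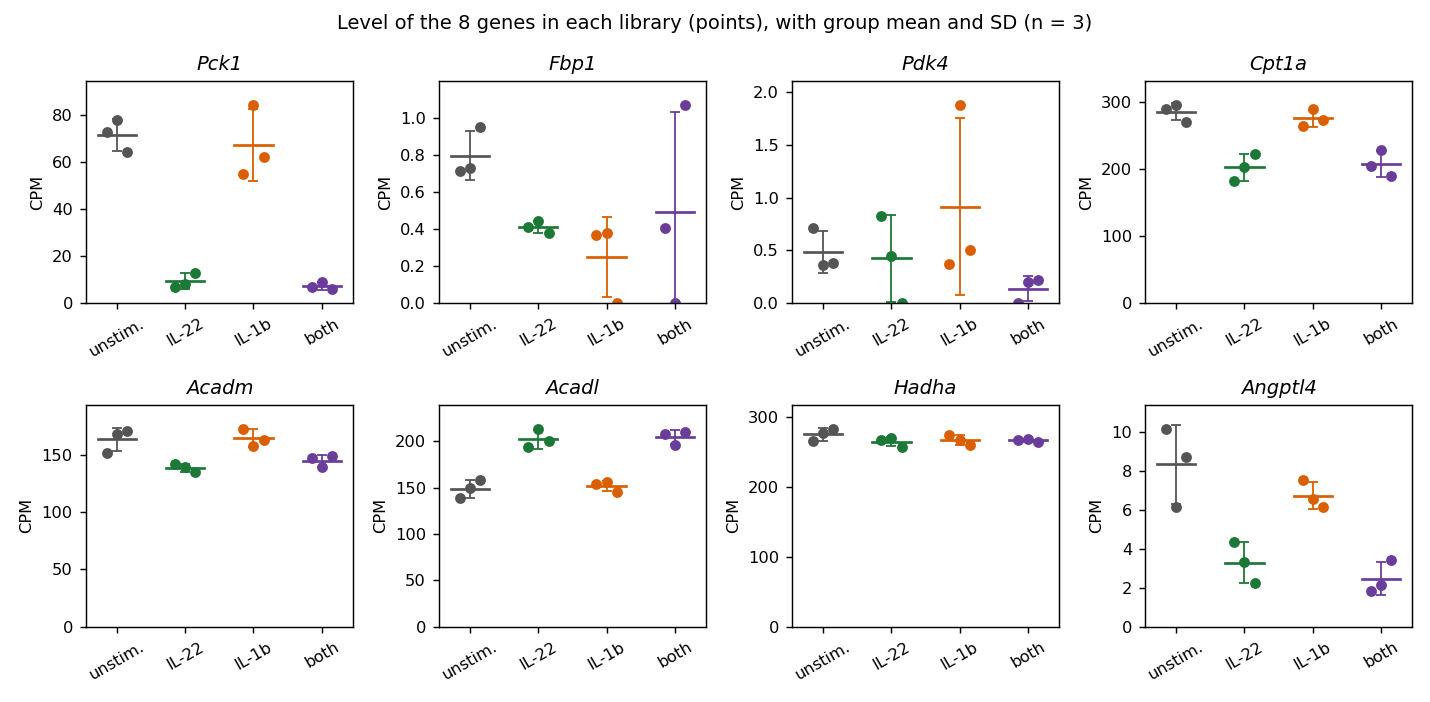
Level of each of the 8 genes in CPM (vertical axis from 0) in the 12 libraries, by group; points are libraries, horizontal lines are group means and error bars SD (n = 3). The 6 libraries with IL-22 lie apart from the 6 without it for Pck1, Cpt1a, Acadm, Acadl and Angptl4, and the groups overlap for Fbp1, Pdk4 and Hadha. The share of all genes that lie apart in this way was not counted. Of all genes tested, 22.5% were called with IL-22 and 27.0% with both cytokines. That is a different measure, and the gap cannot be read as particular to these genes.

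Pck1 and the Acadm and Acadl pair are shown by promoter because Pck1 had the largest change and Acadm and Acadl, related dehydrogenase genes, moved in opposite directions. The windows are the 250 bases before the RefSeq start on GRCm38.p6, written 5′ to 3′ on the gene's own strand, and capitals mark matches to the motifs searched. The Pck1 window is chr2:173152823-173153072 on the plus strand, the Acadm window chr3:153944644-153944893 and the Acadl window chr1:66863310-66863559, both on the minus strand.
Pck1: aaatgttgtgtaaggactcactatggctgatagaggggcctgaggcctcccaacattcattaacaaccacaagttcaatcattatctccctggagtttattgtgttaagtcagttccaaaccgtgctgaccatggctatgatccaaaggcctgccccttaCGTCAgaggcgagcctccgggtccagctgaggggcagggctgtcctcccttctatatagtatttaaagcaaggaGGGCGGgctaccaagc
Acadm: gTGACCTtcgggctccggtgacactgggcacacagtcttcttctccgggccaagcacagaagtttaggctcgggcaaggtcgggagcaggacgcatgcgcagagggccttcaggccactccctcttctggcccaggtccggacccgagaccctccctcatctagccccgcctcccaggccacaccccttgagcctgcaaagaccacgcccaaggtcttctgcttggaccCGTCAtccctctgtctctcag
Acadl: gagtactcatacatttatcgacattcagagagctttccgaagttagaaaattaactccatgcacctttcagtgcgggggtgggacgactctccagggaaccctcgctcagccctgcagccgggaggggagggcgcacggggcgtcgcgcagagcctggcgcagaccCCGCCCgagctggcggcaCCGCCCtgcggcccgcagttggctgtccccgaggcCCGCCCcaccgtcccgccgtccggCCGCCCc
In Pck1 the capitals are the complement of TGACG, the core of a cyclic AMP response element, whose first base lies at -90 from the start, and a GC box (GGGCGG) at -16. The Acadm window holds the complement of the nuclear receptor core AGGTCA at -249 and that of TGACG at -21. The Acadl window holds 4 GC boxes on the opposite strand, at -84, -66, -31 and -7.

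RefSeq promoter windows were at hand for 7 of the 8 genes, all but Angptl4. Searched on both strands over 32851 windows of the same length, TGACG was present in 17.8%, AGGTCA in 14%, GGGCGG in 32.7% and CCAAT in 33.8%. Cpt1a had AGGTCA at -94, CCAAT at -19 and GC boxes at -75 and -59, each GC box and AGGTCA on the opposite strand. Fbp1 and Pdk4 each had a CCAAT box on the opposite strand (at -124 and -131), and Fbp1 a GC box at -84. The STAT motif TTCNNNGAA, found in 7.02% of all windows, matched in Hadha alone (at -156), the gene whose level did not pass the test with IL-22, next to a GC box at -188. The STAT6-type site (5.85% of windows), TGTTTAC (3.17%), TATAAA (12.4%), TGACGTCA (1.55%), the PPAR response element as a direct repeat of AGGTCA (0.0335%) and the palindromic glucocorticoid response element (0.00913%) matched in none of the 7. TGACGTCA contains TGACG, and the direct repeat contains AGGTCA. These are matches of letters in short windows and say nothing of binding.

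Pck1, which encodes the cytosolic PEPCK that commits oxaloacetate to gluconeogenesis (mm10 chromosome 2, 173153048 to 173159273), held the largest change. Its level was 72.7, 77.7 and 64.3 CPM in the 3 unstimulated libraries and 6.81, 8.20 and 13.0 CPM with IL-22. With IL-1b it was 54.8, 84.3 and 62.2 CPM, and with both cytokines 6.86, 9.02 and 6.01 CPM. The highest of the 6 libraries with IL-22 (13.0 CPM) lay far below the lowest of the 6 without it (54.8 CPM). How many of all genes have such a gap was not counted, here or for the genes below. IL-22 lowered Pck1 from 71.5 ± 6.76 to 9.34 ± 3.25 CPM (SD, n = 3), that is to 0.132 of the unstimulated level. With both cytokines the fitted level was 0.103 of unstimulated, a log2 fold change of -3.28 ± 0.22 (SE; edgeR quasi-likelihood test, adjusted p = 2.18e-07). IL-1b alone left 67.1 ± 15.4 CPM (-0.10 ± 0.16, adjusted p = 0.859), with a 95% interval of -0.44 to 0.25 on the log2 scale. In the order of levels, unstimulated and IL-1b did not differ beyond their spread, IL-1b and IL-22 did (adjusted p = 8.91e-07), and IL-22 and both did not (-0.36 ± 0.29, adjusted p = 0.724).

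Fbp1, the enzyme gene that follows PEPCK on the way to glucose (chromosome 13, 62864753 to 62888282), was scarcely present. Its counts were 4, 4 and 5 in unstimulated libraries, 2, 2 and 2 with IL-22, 2, 2 and 0 with IL-1b, and 2, 0 and 5 with both. In a library 3 counts stand for 0.497 to 0.663 CPM. The groups overlapped, and Fbp1 did not reach the filter. The ratio of summed counts with IL-22 to unstimulated was 0.516, with an exact 95% interval of 0.161 to 1.46 that covers counting error only. For IL-1b, with 4 summed counts against 13, the ratio was 0.3 (0.0714 to 0.973). With no filter on low counts the edgeR quasi-likelihood test called neither (adjusted p = 0.629 for each).

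Pdk4, whose kinase switches off pyruvate dehydrogenase in fasting (chromosome 6, 5483351 to 5496309), was as scarce. It had 4, 2 and 2 counts in unstimulated libraries, 4, 2 and 0 with IL-22, 2, 10 and 3 with IL-1b, and 0, 1 and 1 with both. The 10 counts of IL-1b replicate 2 made up most of that group's 15. The ratio of both cytokines to IL-1b, 2 summed counts against 15, was 0.152 (0.0169 to 0.654), and with no filter the adjusted p was 0.0725 (edgeR quasi-likelihood test). No change of Fbp1 or Pdk4 was called in any comparison. Of the other kinases of pyruvate dehydrogenase, Pdk2 was abundant, as described with the pathway lists.

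Cpt1a, the entry gate for long-chain fatty acids (chromosome 19, 3322334 to 3385733), also fell with IL-22. Its level was 290, 296 and 271 CPM in unstimulated libraries, 183, 203 and 223 with IL-22, 264, 290 and 273 with IL-1b, and 205, 228 and 189 with both. The 6 libraries with IL-22 (183 to 228 CPM) and the 6 without (264 to 296 CPM) did not overlap. The log2 fold change was -0.49 ± 0.08 with IL-22 (0.710 of the unstimulated level; edgeR quasi-likelihood test, adjusted p = 0.000523) and -0.46 ± 0.08 with both (adjusted p = 0.000629). With IL-1b alone it was -0.05 ± 0.08, with a 95% interval of -0.22 to 0.11.

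Acadm and Acadl, whose enzymes take the first oxidation step on medium and long acyl chains, went opposite ways with IL-22. Acadl (chromosome 1, 66830839 to 66863277) stood at 139, 150 and 158 CPM in unstimulated libraries, 194, 214 and 200 with IL-22, 154, 156 and 146 with IL-1b, and 208, 196 and 210 with both. All 6 libraries with IL-22 (194 CPM and above) were higher than all 6 without it (158 CPM and below). It rose by 0.44 ± 0.06 with IL-22 and 0.46 ± 0.06 with both (edgeR quasi-likelihood test, adjusted p = 0.000142 and 8.01e-05). Acadm (chromosome 3, 153922357 to 153944632) stood at 152, 168 and 171 CPM in unstimulated libraries, 142, 139 and 135 with IL-22, 173, 158 and 163 with IL-1b, and 147, 139 and 149 with both. Here the gap was narrow, between 149 CPM at the top of the libraries with IL-22 and 152 CPM at the bottom of those without. Acadm fell by 0.24 on the log2 scale with IL-22 (-0.24 ± 0.06, adjusted p = 0.0102) and stood at -0.17 ± 0.06 with both (adjusted p = 0.0421). The call with both cytokines was lost by the DESeq2 Wald test (adjusted p = 0.0653) and without unstimulated replicate 2 or 3 (0.130 and 0.135), IL-1b replicate 3 (0.0599) or replicate 1, 2 or 3 with both (0.0761, 0.121 and 0.0619). With IL-1b alone Acadl was at 0.03 ± 0.06 and Acadm at 0.01 ± 0.06, with 95% intervals of -0.10 to 0.16 and -0.12 to 0.13.

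Counts of Acadl over counts of Acadm in the same library do not depend on how libraries are scaled. The ratio was 0.913, 0.893 and 0.920 in unstimulated libraries and 0.887, 0.986 and 0.895 with IL-1b. It was 1.36, 1.54 and 1.48 with IL-22 and 1.41 in each of the 3 libraries with both. The pair was picked after its values were seen, so the ratio is given with no test. Cpt1a over Hadha went from 1.04 ± 0.07 (SD, n = 3) unstimulated and 1.03 ± 0.06 with IL-1b to 0.766 ± 0.0896 with IL-22 and 0.774 ± 0.0683 with both.

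**Figure D2:**
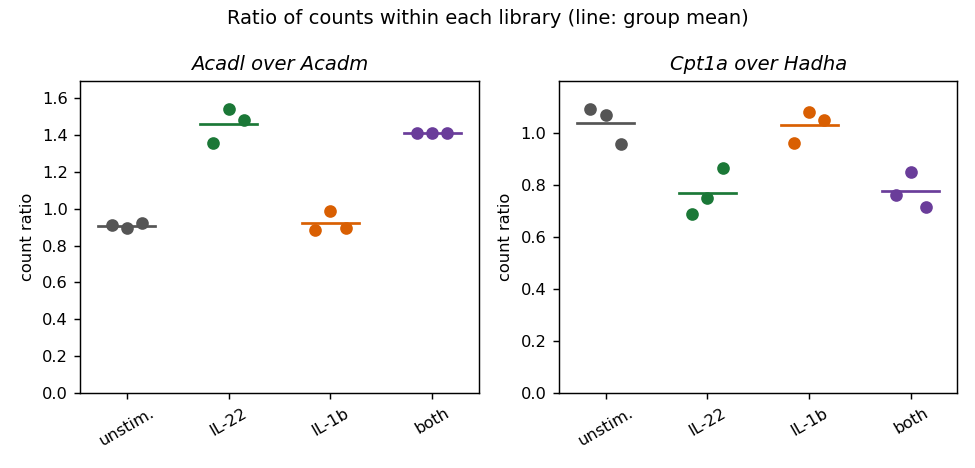
Ratio of counts within each library for Acadl over Acadm (left) and Cpt1a over Hadha (right), with vertical axes from 0; points are libraries and lines group means (n = 3). Acadl over Acadm lies between 0.887 and 0.986 without IL-22 and between 1.36 and 1.54 with it, while Cpt1a over Hadha is lower in every library with IL-22.

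Hadha, the alpha subunit of the trifunctional protein that carries out the later steps of long-chain oxidation (chromosome 5, 30118304 to 30155162), stayed within a narrow range. Its level was 266, 277 and 284 CPM in unstimulated libraries, 267, 270 and 258 with IL-22, 275, 268 and 261 with IL-1b, and 268, 269 and 265 with both. The groups overlapped. With IL-22 the log2 fold change was -0.06 ± 0.04 (edgeR quasi-likelihood test, adjusted p = 0.414), with a 95% interval of -0.15 to 0.04. Removing the trend of fold change on count per exon base brought it to -0.11 with IL-22 and -0.10 with both, which passed the test (adjusted p = 0.0436 and 0.0483). Hadha shares exon bases with Garem2 on the other strand and the counting strand is not given, so its count is uncertain.

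Angptl4, a secreted inhibitor of lipoprotein lipase and a common read-out of PPAR activity (chromosome 17, 33773750 to 33781830), fell with IL-22 from a low level. It had 57, 34 and 46 counts in unstimulated libraries (10.2, 6.18 and 8.72 CPM) and 21, 15 and 12 with IL-22 (4.34, 3.32 and 2.26 CPM). With IL-1b it had 41, 35 and 37 counts (7.53, 6.58 and 6.15 CPM), and with both 9, 11 and 16 (1.82, 2.16 and 3.43 CPM). No library with IL-22 exceeded 4.34 CPM and none without it was under 6.15 CPM. The log2 fold change was -1.34 ± 0.28 with IL-22 (0.395 of the unstimulated level; edgeR quasi-likelihood test, adjusted p = 0.00352) and -1.76 ± 0.29 with both (0.295, adjusted p = 0.000565). IL-1b alone gave -0.31 ± 0.25 (adjusted p = 0.682), with a 95% interval of -0.84 to 0.22. Of the adipocyte markers, Cidec fell with IL-22 as well, while Adipoq had 3 counts and Lep 0 over all libraries, and their part in the Angptl4 value was not tested. The difference between IL-22 and IL-1b (-1.03 ± 0.28, adjusted p = 0.0164) lost its call when IL-22 replicate 2 (adjusted p = 0.0501), IL-22 replicate 3 (-0.81, 0.0628) or IL-1b replicate 1 (0.0564) was left out.

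Adding IL-22 to IL-1b gave the same directions as IL-22 alone. Against IL-1b, both cytokines left Pck1 at -3.19 ± 0.22, Angptl4 at -1.45 ± 0.30, Cpt1a at -0.41 ± 0.08, Acadm at -0.18 ± 0.06 and Acadl at 0.43 ± 0.06. These 5 of the 6 tested genes were called (4 lower and 1 higher), beside 26.3% of all genes called, 13.0% lower and 13.3% higher, and the counts with both against unstimulated were also 4 and 1, beside 13.3% and 13.7%. IL-22 alone against IL-1b alone also called 4 lower and 1 higher, beside 26.3% of all genes called, 12.5% lower and 13.7% higher. The call of Acadm against IL-1b (adjusted p = 0.0358) was lost by DESeq2 (0.0529) and without IL-1b replicate 1 or 3 (0.144 and 0.0733) or replicate 1 or 2 with both (0.0643 and 0.114). Comparisons against IL-1b and against unstimulated share the libraries with both cytokines, so their values are set side by side only.

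Adding IL-1b to IL-22 called none of the 6 tested genes, by the edgeR quasi-likelihood test or DESeq2, beside 0.0786% of all genes called by edgeR (0.0643% higher and 0.0143% lower). Unadjusted edgeR p-values of the 6 lay between 0.225 (Pck1) and 0.810 (Acadl). The widest 95% intervals were those of Angptl4 (-1.14 to 0.31) and Pck1 (-0.98 to 0.25), and the narrowest that of Hadha (-0.08 to 0.11). Departure from additivity was called for none of the 6, with adjusted p of 0.988 to 0.999. Over all genes the edgeR interaction test called 0%, that is 0 genes, where 705 reached 0.05 before adjustment and DESeq2 called 4. For Pck1 the interaction was -0.27 ± 0.33, for Angptl4 -0.11 ± 0.41 and for Cpt1a 0.08 ± 0.11.

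**Figure D3:**
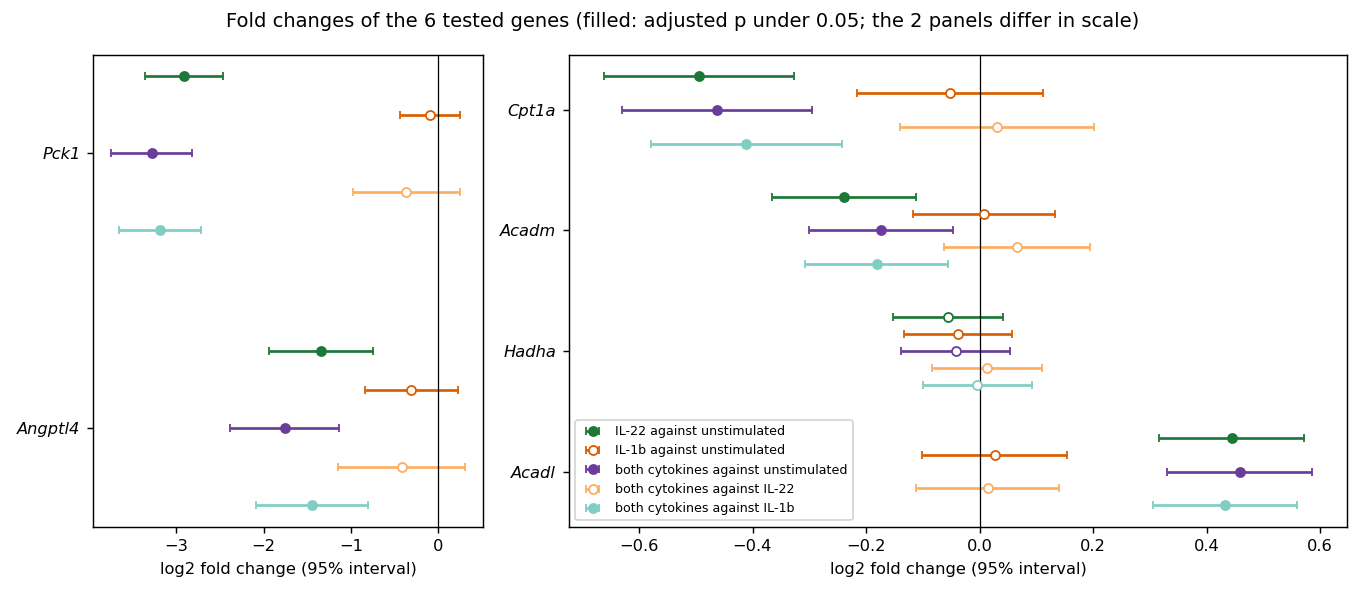
Log2 fold changes (horizontal axis, with 95% intervals from the edgeR quasi-likelihood fit) of the 6 tested genes in 5 comparisons; filled points have an adjusted p under 0.05, and the left panel (Pck1 and Angptl4) has a wider scale than the right. The 3 comparisons that add IL-22 are filled on one side of 0 for each gene but Hadha, and both comparisons that add IL-1b have intervals that include 0.

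Per kilobase of annotated exon, the scale on which genes can be compared, Acadl was the most abundant of the 8 in unstimulated colonoids (74.3 CPM per kb), followed by Acadm (41.9), Cpt1a (37.4), Hadha (31.5) and Pck1 (20.9). Angptl4 stood at 2.36, Fbp1 at 0.468 and Pdk4 at 0.138 CPM per kb. With IL-22 the level of Acadl was 101 CPM per kb, that of Acadm 35.5, that of Cpt1a 26.5 and that of Pck1 2.72, with Angptl4 at 0.934. Exon lengths count all GENCODE models of a gene, which understates genes with long alternative exons, and the possible compression of abundant genes applies to this order.

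Across the 12 libraries Pck1 and Cpt1a followed each other (Pearson r of log2 CPM 0.97), and Acadl ran against both (-0.96 and -0.92). Acadm correlated with Pck1 at 0.79 and Hadha with Pck1 at 0.36. These are descriptions over libraries that share 4 group means, so they chiefly restate the difference with IL-22. Among 11104 genes with a mean of 5 CPM or more, the 3 most like Pck1 were the nuclear envelope gene Sun2 (r = 0.996, 153 ± 22.6 CPM unstimulated and 35.2 ± 10.3 with IL-22), Exph5 (0.994) and Rapgefl1 (0.990). Those most like Cpt1a were Pdk2, another pyruvate dehydrogenase kinase gene (0.990), Rapgefl1 (0.983) and the sulphate-activating enzyme gene Papss1 (0.979). Stom (0.990), the asparaginyl-tRNA synthetase gene Nars (0.988) and Cd47 (0.987) were most like Acadl. For Acadm they were Spag17 (0.95), Ggact (0.948) and Nanp (0.945), and for Angptl4 Ypel3 (0.964), Ly6g6c (0.951) and Lbh (0.947). Spag17 and Nanp, at 6.48 and 14.3 CPM unstimulated, were not called with IL-22 (edgeR quasi-likelihood test, adjusted p = 0.0924 and 0.143). No member of the 8 was among another's 3. With Spearman's rho in place of r, 2 of the 3 remained for Angptl4, 1 for Cpt1a and 0 for Pck1, Acadm and Acadl.

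The pathway lists are read beside the shares of all genes called, 22.5% with IL-22 and 27.0% with both cytokines, and none was tested against other genes. These lists, too, were chosen with earlier results of these data known. Of 31 tested regulators of fasting and lipid oxidation, 5 fell and 3 rose with IL-22, with a median log2 fold change of -0.0010 against -0.0004 over all genes, so that 25.8% of the list was called. Without IL-22 replicate 2 the counts were 3 and 2. Ppara, the receptor PPAR-alpha, fell from 44.8 to 14.9 CPM (-1.58 ± 0.25, adjusted p = 0.000571) and stood at 37.8 CPM with IL-1b and 15.1 with both. Ppargc1a, which encodes PGC-1alpha, fell from 120 to 65.2 CPM (-0.88 ± 0.13) and was at 51.3 CPM with both (-1.22 ± 0.14). Its relative Ppargc1b fell by 0.57 on the log2 scale (-0.57 ± 0.14), a call lost when replicate 2 of the unstimulated group (-0.50, adjusted p = 0.0531) or of the IL-22 group (-0.51, adjusted p = 0.0546) was left out. Acacb, which makes the malonyl-CoA that inhibits CPT1, stood at -1.20 ± 0.36. Without unstimulated replicate 1 it was at -0.61 (adjusted p = 0.153), and its call was also lost without IL-22 replicate 1 (0.0638) or 2 (0.108). With both cytokines Acacb was at 23.4 CPM, against 22.6 ± 13.6 (SD) unstimulated and 9.79 with IL-22. Both against unstimulated gave 0.05 ± 0.32 (edgeR quasi-likelihood test, adjusted p = 0.93), where Ppara and Ppargc1a were called lower. The difference of Acacb between both and IL-22 was not called (1.25 ± 0.36, adjusted p = 0.236). With both cytokines the list again held 5 lower and 3 higher genes (4 and 5 without unstimulated replicate 1), among them Sirt3 (-0.58 ± 0.10), a mitochondrial deacetylase gene that shares exon bases with its neighbours.

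Of 27 tested genes of mitochondrial fatty acid oxidation, 10 fell and 3 rose with IL-22 (median -0.10), and 9 fell and 2 rose with both (median -0.13), which is 48.1% and 40.7% of the list. These counts include Cpt1a, Acadm and Acadl. Without unstimulated replicate 2 the counts were 6 lower and 2 higher with IL-22 and 4 and 2 with both, and without replicate 3 of the group with both they were 4 and 2 there. Acad12 and Acad10, adjacent and related acyl-CoA dehydrogenase genes, fell by 0.996 and 0.58 on the log2 scale with IL-22 (-0.996 ± 0.15 and -0.58 ± 0.12), and the enoyl-CoA isomerase gene Eci1 by 0.45 (-0.45 ± 0.08). Reads that fit both Acad10 and Acad12 could be split between them by the counting.

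Of 16 peroxisomal oxidation genes, 4 fell and 1 rose with IL-22 (median -0.13), and 5 fell and 0 rose with both, 31.2% of the list each time. Scaled by total counts alone the IL-22 counts were 7 lower and 0 higher, and without unstimulated replicate 2 they were 2 and 0. With both cytokines 1 gene was called lower without unstimulated replicate 2 or without replicate 3 of that group. Leaving out 1 library moved the IL-22 counts between 2 and 5 lower and between 0 and 1 higher. Ehhadh, the peroxisomal bifunctional enzyme gene, fell from 109 to 84.6 CPM (-0.36 ± 0.06) and Hsd17b4 by 0.23 on the log2 scale (-0.23 ± 0.06). The thiolase gene Acaa1b (-0.54 ± 0.18, adjusted p = 0.0395) and Pex11a (0.28 ± 0.10, adjusted p = 0.0496) were near the threshold. Acaa1b lost its call without any one of 8 of the 12 libraries (range -0.73 to -0.32) and Pex11a without any one of 10 (range 0.18 to 0.38). Acaa1b is also near-identical to Acaa1a.

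The list of acyl-CoA synthetase and thioesterase genes had the lowest median among the pathway lists with IL-22. Of 15 tested acyl-CoA synthetases and thioesterases, 7 fell and 1 rose with IL-22 (median -0.25) and with both (median -0.18), 53.3% of the list. The fatty acid transport protein gene Slc27a1 fell from 32.7 to 15.8 CPM (-1.05 ± 0.15), the mitochondrial thioesterase gene Acot2 from 15.8 to 9.23 (-0.77 ± 0.18), Acsm3 from 131 to 83.3 (-0.65 ± 0.09) and the acetyl-CoA synthetase gene Acss1 from 91.2 to 58.8 (-0.63 ± 0.11). Acot2 has a near-identical neighbour, Acot1, and Acsm3 and Acss1 share exon bases with other models on the other strand, so these counts are uncertain. Acsl4, which activates arachidonate, was higher with IL-22 alone (0.61 ± 0.08, edgeR quasi-likelihood test, adjusted p = 9.13e-05) and with both cytokines (0.75 ± 0.08). Its difference between both and IL-22 was not called (0.14 ± 0.07, adjusted p = 0.562).

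Genes known as PPAR targets did not move one way. Of 28 tested, 11 fell and 5 rose with IL-22 (median -0.18), and 11 fell and 4 rose with both (median -0.17), 57.1% and 53.6% of the list. The list holds Angptl4, Cpt1a, Acadm and Acadl. Without unstimulated replicate 2 the IL-22 counts were 7 and 4, and without replicate 3 of the group with both the counts there were 7 and 3. Creb3l3, a transcription factor gene of the fasting liver, fell from 42.9 to 24.3 CPM (-0.82 ± 0.20). The pantetheinase gene Vnn1 rose from 13.3 to 32.9 CPM (1.30 ± 0.19) and the lipid droplet gene Hilpda from 30.3 to 59.7 CPM (0.98 ± 0.13). With both cytokines Hilpda was at 57.6 CPM and Vnn1 at 21.2 CPM.

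Of 13 tested gluconeogenesis genes, Pck1 included, 4 fell and 2 rose with IL-22 (median -0.03), and 4 fell and 1 rose with both (median -0.07), 46.2% and 38.5% of the list. The alanine aminotransferase gene Gpt fell by 0.65 on the log2 scale with IL-22 (-0.65 ± 0.14), and its relative Gpt2 by 0.82 with both (-0.82 ± 0.16). Gpd1, which links glycerol to glucose and shares exon bases with another model, rose from 37.2 to 60.2 CPM (0.69 ± 0.10).

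Of 7 tested genes of ketone body synthesis and use, 1 rose and 1 fell with IL-22, and the same counts held with both cytokines. The median was -0.04 each time, and 28.6% of the list was called. Leaving out 1 library moved the lower count between 0 and 1. The gene that rose was Acat2, a cytosolic thiolase gene, from 84.4 to 115 CPM with IL-22 (0.45 ± 0.08, edgeR quasi-likelihood test, adjusted p = 0.00105). With both it rose by 0.58 ± 0.08 on the log2 scale (adjusted p = 0.000108).

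Where Pdk4 was scarce, Pdk2 was not. Pdk2 fell from 144 to 79.5 CPM with IL-22 (-0.85 ± 0.11, adjusted p = 0.000111) and was at 137 CPM with IL-1b and 77.7 with both. Of 13 tested genes of pyruvate dehydrogenase and its regulators, 2 fell and 0 rose with IL-22 (median -0.02). That is 15.4% of the list, below the 22.5% of all genes. The other, Pdpr (-0.32 ± 0.10, adjusted p = 0.0335), lost its call without unstimulated replicate 1 or 2 (adjusted p = 0.102 and 0.103) or IL-22 replicate 1 or 2 (0.129 and 0.0907). With both 3 fell and 1 rose (3 rose without replicate 2 of that group), including the phosphatase genes Pdp2 (-0.36 ± 0.09) and Pdp1 (0.40 ± 0.12). Pdp1 lost its call without unstimulated replicate 1 or 2 (adjusted p = 0.109 and 0.118) or replicate 1 or 3 with both (0.0938 and 0.127).

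Lpl, the lipase that ANGPTL4 inhibits, fell beside Angptl4. It went from 8.69 to 2.93 CPM with IL-22 (-1.56 ± 0.35, adjusted p = 0.00539) and to 2.61 CPM with both (-1.74 ± 0.36, adjusted p = 0.00249). Of 8 tested angiopoietin-like and lipase genes these 2 were the ones called with IL-22, both lower. That is 25% of the list. Pdgfrb and Pecam1, of the fibroblast and endothelial markers, also fell with IL-22, and their part in the Lpl value was not tested.

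With IL-1b alone, or added to IL-22, the edgeR quasi-likelihood test called 0 genes in each of the pathway lists. Over all genes it called only 0.0715% and 0.0786%, so counts of 0 say little of these lists.

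**Figure D4:**
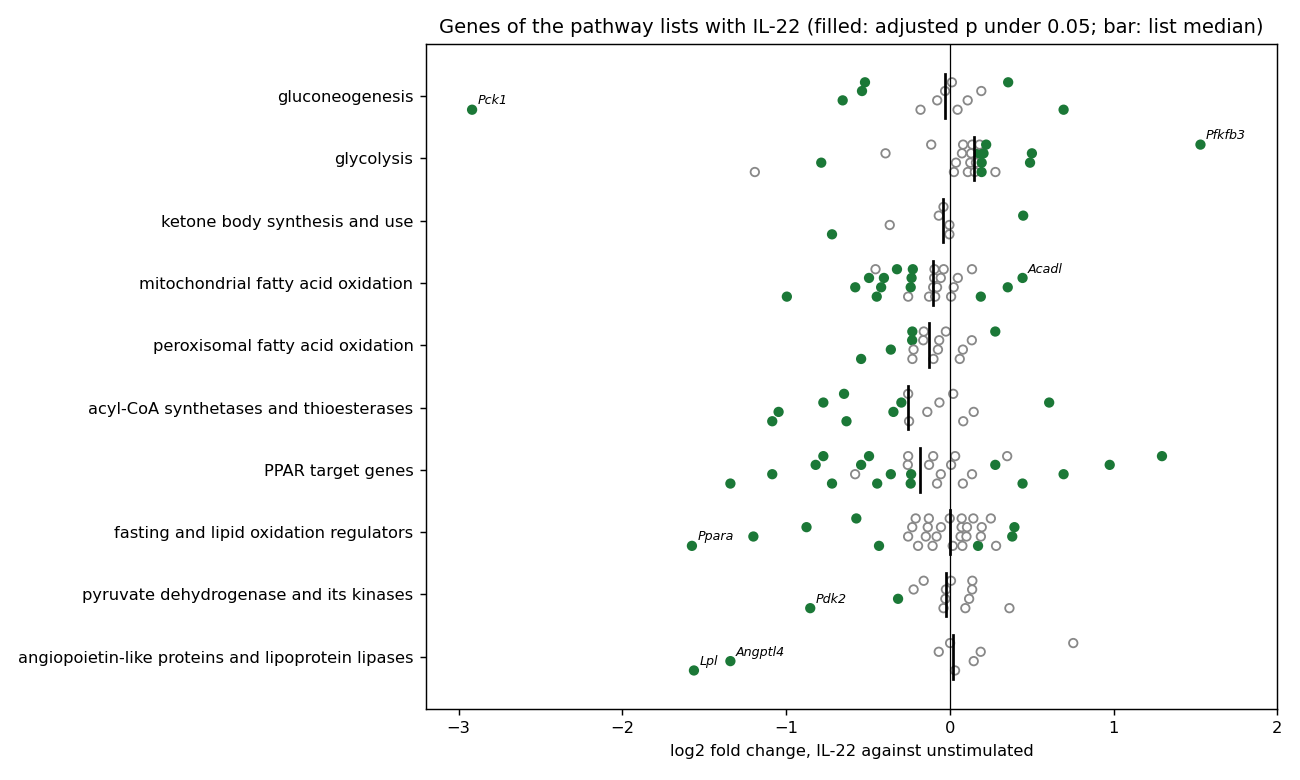
Log2 fold change with IL-22 against unstimulated (horizontal axis) of each tested gene of 10 pathway lists (rows); filled points have an adjusted p under 0.05, bars mark list medians, and vertical placement within a row has no meaning. Pck1 lies farthest left at -2.92, and Ppara, Lpl and Angptl4 lie between -1.58 and -1.34.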

How the data were processed

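Polyadenylated RNA of 12 colonoid libraries was sequenced after a stranded TruSeq preparation, per the labels' protocols. The authors deposited 1 table of read counts per gene symbol and library. The submitters' processing notes name mm10 as the build. Not given in the sources used here are the aligner, the counter, its strand setting and its annotation. Of 35869 symbols, 11498 had no count, 26762 matched GENCODE release M21 directly, 558 by synonym and 8549 not at all. Positions and exon lengths come from that release.

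Counts were tested in R 4.3.3 with edgeR 4.0.16 (filterByExpr, TMM scaling, quasi-likelihood test, Benjamini-Hochberg adjustment over 13987 genes at 0.05), in 1 fit of all 12 libraries with 8 residual degrees of freedom, and tested on simulated data. DESeq2 1.42.0, other scalings and filters, a replicate block and leaving out each library were alternatives. Intervals on low counts are exact at 95% and cover counting error only. Replicates of a group differed by more than sampling noise. The text names all 8 genes and, from each list, up to 4 called genes of 5 CPM or more with the largest change with IL-22, some of those with both cytokines, and the 3 genes most like each called member. Acadl over Acadm and Cpt1a over Hadha were chosen after their values were seen. The members and lists were chosen with earlier results of these data known, and the lists overlap. Some genes of these lists are not reported here by name, although the counts over the lists include them.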

Additional observations from a re-analysis of the deposited data

How the results depend on the processing

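All 139 alternative counts of the tested members called stayed within 1.5 times their main value. Those for IL-1b alone, both against IL-22 and the interaction stayed at 0. The main fit called at most 0.0786% of all genes there, so these counts show little. In the other comparisons a count that went from 5 to 4 was still within the limit. Signs turned only for members that were not called. When single libraries were left out, Pck1 with IL-1b ranged from -0.29 to 0.0301 on the log2 scale, Acadm from -0.0423 to 0.0414 and Acadl from -0.0202 to 0.0699. With both cytokines against IL-22, Cpt1a ranged from -0.0454 to 0.11, Acadl from -0.0115 to 0.0535 and Hadha from -0.0052 to 0.028. Hadha ranged from -0.0254 to 0.0141 for both against IL-1b and from -0.0392 to 0.0015 for IL-22 against IL-1b. The interaction ranged from -0.45 to 0.0654 for Pck1, -0.0555 to 0.0345 for Acadl and -0.42 to 0.14 for Angptl4. With no filter, Hadha for both against IL-1b was 0.0032. The causes were not tested. With the replicate block, Acadm lost its call for both against unstimulated (-0.17, adjusted p = 0.0638) and against IL-1b (-0.18, adjusted p = 0.0562), by edgeR. Replicate numbers did not pair the libraries: same-number correlations were -0.188 to 0.179, and 2 of 12 libraries correlated best with their own number. Scaling by total counts split the calls with IL-22 over all genes into 1206 higher and 1991 lower, from 1661 and 1483. Without unstimulated replicate 2 that total was 1977, from 3144. With IL-1b alone 10 genes were called in all, 32 by DESeq2, 212 with no filter and 25 without unstimulated replicate 3. With both against IL-22 these were 11, 87 by DESeq2, 336 with no filter and 71 without IL-22 replicate 1. Fbp1 and Pdk4 had at most 5 and 10 counts in a library, so their intervals are wide.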

Other observations

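Of 24 tested glycolysis genes, the counterpart of the gluconeogenic list, 8 rose and 1 fell with IL-22 (median log2 fold change 0.14), and 6 rose and 1 fell with both cytokines (median 0.11), 37.5% and 29.2% of the list beside 22.5% and 27.0% of all genes. Scaled by total counts alone, or without unstimulated replicate 2, the IL-22 counts were 3 higher and 1 lower. Leaving out 1 library gave between 3 and 12 higher with IL-22, at 4 or fewer when the library left out was replicate 1 or 2 of either group. With both it gave between 2 and 9 higher, at 2 when it was unstimulated replicate 1 or 2, or replicate 1 or 3 with both. Pfkfb3, which makes the fructose-2,6-bisphosphate that activates phosphofructokinase, rose from 97.9 to 284 CPM with IL-22 (1.53 ± 0.13, SE; edgeR quasi-likelihood test, adjusted p = 2.97e-06). It stood at 80.6 CPM with IL-1b and 230 CPM with both. The hexokinase gene Hk2 rose from 447 to 628 CPM (0.49 ± 0.06, adjusted p = 6.33e-05), and Pfkfb4 by 0.50 ± 0.09. Pfkm, a phosphofructokinase gene that shares exon bases with other models, fell by 0.79 on the log2 scale (-0.79 ± 0.16).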
